A study of Mus musculus with 6 samples.

Results

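Sialyltransferases are the Golgi enzymes that place sialic acid on the ends of the sugar chains of glycoproteins and glycolipids. The 10 genes described here are St6gal1, St3gal1 to St3gal6, St6galnac3, St6galnac4 and St6galnac6, which were taken by name from the 26128 genes of a table of read counts and make up 10 of the 20 mouse genes of the family. All 10 were matched to 1 Ensembl identifier each and all 10 passed the filter on low counts, along with 14671 genes in all. They were measured by bulk RNA sequencing of converted double negative T (DNT) cells, which are T cells that carry CD3 but neither CD4 nor CD8.

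The DNT cells of both groups were made from CD4+CD25- T cells of adult wild-type C57BL/6 mice by culture with mature dendritic cells of the DBA/2 strain and IL-2. They were then sorted as CD3+NK1.1-CD4-CD8- cells and restimulated with beads that carry antibodies to CD3 and CD28. The 3 control libraries came from cells restimulated without IL-33, and the 3 IL-33 libraries came from cells that received IL-33, a cytokine of the IL-1 family, at 50 ng/ml for 48 h. The labels name the spleen as the tissue, whereas the study's methods name both spleens and lymph nodes as the source of the CD4+CD25- T cells. The labels do not say whether the 3 libraries of a group came from separate mice or cultures, so the p-values measure only the spread between these libraries.

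Each family of sialyltransferases makes one kind of bond. St6gal1 attaches sialic acid in alpha-2,6 linkage to the galactose at the end of N-linked chains, whereas the St3gal enzymes use the alpha-2,3 linkage on N-linked chains, O-linked chains or glycolipids, and the St6galnac enzymes extend the N-acetylgalactosamine of O-linked chains and of gangliosides. In T cells these caps are known to decide which galactose residues galectins can reach, to form part of the ligands of selectins, and to differ between naive and activated cells. The sialic acid itself is made in the cytosol, activated to its CMP form in the nucleus and carried into the Golgi, and sialidases take it off again.

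St6gal1 is the member that the study followed by real-time PCR, and the amplified stretch shows which part of the gene that assay reads. Of the 5 annotated St6gal1 transcripts, 3 held both primers (St6gal1-201, St6gal1-202 and St6gal1-205), and no transcript of another gene held an exact match to either primer. The product of 152 bases lay on the plus strand at chr16:23321132-23321283 (GRCm38, GENCODE M21) inside 1 coding exon, from 23321033 to 23321678, and was the same in those 3 transcripts. The capitals mark the sense primer site and the reverse complement of the antisense primer.

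St6gal1 PCR product: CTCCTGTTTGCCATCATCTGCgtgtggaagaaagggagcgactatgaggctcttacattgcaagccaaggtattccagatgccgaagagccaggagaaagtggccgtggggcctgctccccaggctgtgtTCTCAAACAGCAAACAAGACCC

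The RNA sequencing counts were summed over the whole gene and carry no information on where transcription began. The stretches upstream of the annotated starts of the 2 genes that fell most and of the 1 gene that rose are shown here, taken from RefSeq (GRCm38.p6) and cut where an annotated exon begins. St6gal1 had 3 annotated starts in that table, of which the outermost (plus strand, chr16:23224490-23224739) is shown. The St6galnac3 stretch is from the minus strand (chr3:153725175-153725383) and holds the palindrome CACGTG, in capitals, from 97 to 92 bases before the start. The stretch of the outer St3gal6 start is from the minus strand (chr16:58524254-58524503).

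St6gal1 upstream: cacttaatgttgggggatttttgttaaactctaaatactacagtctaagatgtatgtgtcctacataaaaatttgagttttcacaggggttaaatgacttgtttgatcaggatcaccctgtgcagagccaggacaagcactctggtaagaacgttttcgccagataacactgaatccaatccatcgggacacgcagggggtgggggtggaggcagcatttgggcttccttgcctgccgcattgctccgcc
St6galnac3 upstream: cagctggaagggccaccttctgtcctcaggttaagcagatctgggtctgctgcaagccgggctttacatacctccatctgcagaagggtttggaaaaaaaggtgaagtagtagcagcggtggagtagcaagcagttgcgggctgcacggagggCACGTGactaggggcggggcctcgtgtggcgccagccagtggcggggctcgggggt
St3gal6 upstream: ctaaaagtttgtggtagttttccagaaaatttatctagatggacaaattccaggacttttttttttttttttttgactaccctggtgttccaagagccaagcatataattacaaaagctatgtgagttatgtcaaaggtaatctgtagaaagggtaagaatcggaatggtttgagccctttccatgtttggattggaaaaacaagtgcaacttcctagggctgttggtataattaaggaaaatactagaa

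In the RefSeq windows of 300 bases, 250 before and 50 after a start, 8 of the 10 genes had 11 windows, which were searched on both strands for TATAAA, for the NF-κB consensus, for the palindrome CACGTG and, as the core site of EGR factors, for GCGNGGGCG. The NF-κB consensus matched 1 of the 11, at the inner start of St3gal6, against 8.46% of all 32851 windows. CACGTG matched the St6galnac3 window alone among the 11 (7.15% of all windows), GCGNGGGCG the St3gal5 window alone (5.55%), and TATAAA none of the 11 (13.6%). None of the 4 motifs was in any of the 3 windows of St6gal1. These matches describe letters only.

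The libraries held between 20256342 and 22336050 counts, so that 3 counts corresponded to 0.135 to 0.148 CPM (per-million counts, scaled by the TMM method). The T cell marker Cd3e stood at 300 ± 12.9 CPM (SD, n = 3) without and 306 ± 7.49 CPM with IL-33, and Cd4 at 0.934 ± 0.183 and 0.373 ± 0.143 CPM. Of the 12 T cell identity markers, all tested, 2 rose and 5 fell at an adjusted p under 0.05. By the same rule 13.6% of all genes tested rose and 13.9% fell. In each direction 1 of the 12 markers also changed by at least 1.5-fold. The 12 include the coreceptor genes Cd4, Cd8a and Cd8b1, and the mean of Cd8a alone went from 545 to 400 CPM. The summed level of the 12 markers, Cd8a included, was 3264 to 3451 CPM without and 3157 to 3228 CPM with IL-33. Their part in the levels of the sialyltransferase genes was not tested. Cd8a stood at 545 ± 13.6 and 400 ± 9.15 CPM although the cells were sorted as CD8-, which goes against the gate at the level of RNA.

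With IL-33, 4 of the 10 genes changed. St6gal1 and St6galnac3 fell to less than their lowest control level in every IL-33 library, St3gal1 fell slightly, and St3gal6 rose. A gene was called changed when the adjusted p of edgeR's quasi-likelihood test, corrected over all 14671 genes, was under 0.05, a rule that 27.5% of all genes met (13.6% higher and 13.9% lower). Of the 10 genes, 1 was higher and 3 were lower. The 2 that also differed by at least 1.5-fold were both lower, where 4.87% of all genes passed both limits (2.47% higher and 2.39% lower). The median log2 fold change of the 10 genes was -0.10, beside -0.00063 over all genes tested. The groups did not overlap for 4 of the 10 genes, against 38.9% of all genes tested. With 10 genes, these counts describe the members and do not set the family apart from other genes.

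**Figure D1:**
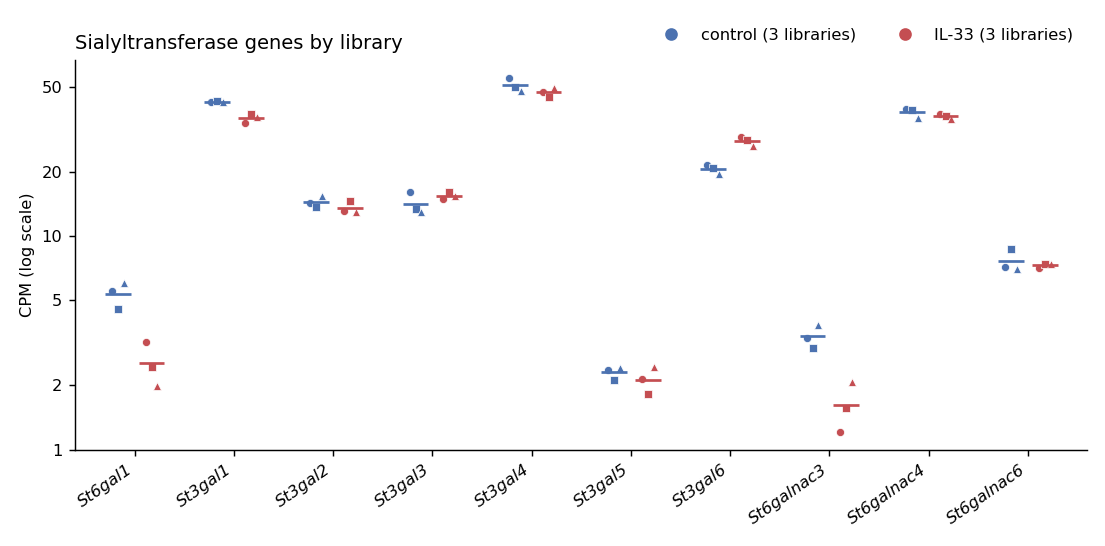
Level of each of the 10 sialyltransferase genes in CPM (log axis) in 3 control (blue) and 3 IL-33 (red) libraries, where circles, squares and triangles are libraries 1, 2 and 3 of a group and the short line is the group mean. The groups are apart for St6gal1 (5.39 against 2.54 CPM), St6galnac3 (3.39 against 1.62 CPM), St3gal1 and St3gal6, and overlap for the other 6 genes.

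St6gal1 (ENSMUSG00000022885), the enzyme of the alpha-2,6 cap, lies on the plus strand of chromosome 16 from 23224740 to 23360350. Its level was 5.56, 4.58 and 6.02 CPM in control libraries 1, 2 and 3, and 3.21, 2.43 and 1.98 CPM in IL-33 libraries 1, 2 and 3. The highest IL-33 library was thus below the lowest control library. The mean fell from 5.39 ± 0.739 to 2.54 ± 0.621 CPM (SD, n = 3), a log2 fold change of -1.09 (SE 0.191, 95% interval -1.47 to -0.71, edgeR adjusted p = 1.95e-06), which is 2.12-fold lower. These values rest on 93 to 132 counts per control library and 44 to 69 counts per IL-33 library. A test of whether the fall exceeded 1.5-fold itself gave an adjusted p of 0.118.

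St6galnac3 (ENSMUSG00000052544) adds sialic acid to the N-acetylgalactosamine of O-linked chains and gangliosides that already carry an outer sialic acid, and spans 526909 bases of chromosome 3 (153198266 to 153725174, minus strand). The control libraries held 3.35, 3.00 and 3.83 CPM and the IL-33 libraries 1.21, 1.57 and 2.07 CPM. Each IL-33 library was below each control library here too, but the IL-33 library with the lowest level was library 1, which held the highest IL-33 level of St6gal1. The mean fell from 3.39 ± 0.418 to 1.62 ± 0.432 CPM (log2 fold change -1.07, SE 0.239, 95% interval -1.54 to -0.59, edgeR adjusted p = 0.000197), which is 2.09-fold lower. It rests on 61 to 84 counts per control library and 26 to 46 per IL-33 library, and against the 1.5-fold limit itself the adjusted p was 0.418.

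St3gal6 (ENSMUSG00000022747), which caps galactose on N-acetyllactosamine chains and takes part in making selectin ligands, was the 1 member that rose. It lies on the minus strand of chromosome 16 (58468125 to 58524243). Its control libraries held 21.6, 20.96 and 19.5 CPM and its IL-33 libraries 29.1, 28.2 and 26.6 CPM. The mean went from 20.7 ± 1.07 to 28.0 ± 1.25 CPM (log2 fold change 0.43, SE 0.0786, 95% interval 0.28 to 0.59, edgeR adjusted p = 3.72e-06), a 1.35-fold rise with no overlap between groups. On the opposite strand Dcbld2 shares 1603 of the 6172 exon bases of St3gal6 (26.0%), and since it is not stated whether strand was used in counting, reads of that stretch could belong to either gene. Dcbld2 itself stood at 6.47 and 7.24 CPM (log2 fold change 0.16, edgeR adjusted p = 0.436).

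St3gal1 (ENSMUSG00000013846) caps the core 1 disaccharide of O-linked chains, the step that peanut agglutinin binding is used to follow in T cells, and lies on chromosome 15 (67102875 to 67176830, minus strand). It stood at 42.4, 42.9 and 42.4 CPM in the control libraries and at 34.0, 37.4 and 36.0 CPM in the IL-33 libraries. The control libraries lay within 1 CPM of each other and every IL-33 library was below them. The log2 fold change was -0.25 (SE 0.0627, 95% interval -0.37 to -0.12, edgeR adjusted p = 0.00107), a 1.19-fold fall that did not reach the 1.5-fold limit.

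**Figure D2:**
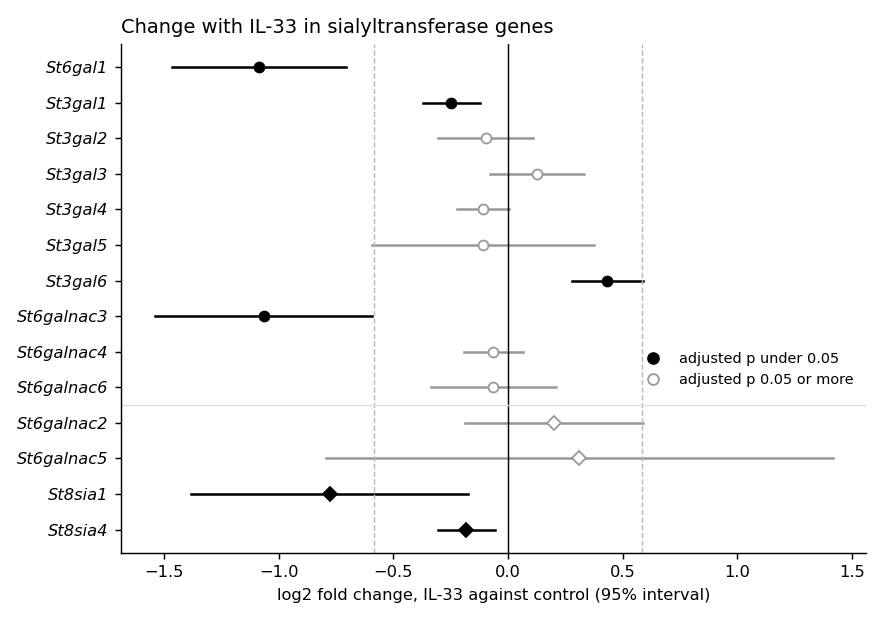
Log2 fold change of IL-33 against control with its 95% interval for the 10 sialyltransferase genes (circles) and the 4 other tested genes of the family (diamonds). Filled black symbols have an adjusted p under 0.05, dashed lines mark a 1.5-fold change, and St6gal1 (-1.09) and St6galnac3 (-1.07) stand farthest to the left.

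The other 4 St3gal genes did not pass the test. St3gal4 (ENSMUSG00000032038), which caps N-acetyllactosamine and contributes to selectin ligands, lies on chromosome 9 (35046576 to 35119268, minus strand). It held 55.4, 49.8 and 47.7 CPM without and 47.4, 45.1 and 49.3 CPM with IL-33, and the groups overlapped (log2 fold change -0.11, 95% interval -0.22 to 0.01, edgeR adjusted p = 0.161). It shares 412 of its 2923 exon bases (14.1%) with 4930581F22Rik on the other strand, which leaves part of its count uncertain. 4930581F22Rik itself fell, with no overlap between groups (log2 fold change -0.17, edgeR adjusted p = 0.0422). St3gal2 (ENSMUSG00000031749), which acts on core 1 chains and on gangliosides, lies on chromosome 8 (110919922 to 110972480, plus strand). It held 14.4, 13.6 and 15.4 CPM in the control and 13.1, 14.7 and 12.9 CPM in the IL-33 libraries (log2 fold change -0.10, 95% interval -0.30 to 0.11, edgeR adjusted p = 0.548).

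St3gal3 (ENSMUSG00000028538) caps galactose on N-linked chains and lies on chromosome 4 (117932154 to 118134914, minus strand). Its levels were 16.2, 13.4 and 12.9 CPM in the control and 14.97, 16.1 and 15.4 CPM in the IL-33 libraries. Control library 1 held the highest of the 6 levels while the other controls were below every IL-33 library, and the log2 fold change was 0.13 (95% interval -0.08 to 0.33, edgeR adjusted p = 0.393). St3gal5 (ENSMUSG00000056091), the GM3 synthase that opens the ganglioside pathway, lies on chromosome 6 (72097592 to 72154571, plus strand). It was at 2.36, 2.12 and 2.42 CPM without and 2.14, 1.81 and 2.43 CPM with IL-33. Its 38 to 54 counts per library gave a log2 fold change of -0.11 with an interval from -0.59 to 0.37 (edgeR adjusted p = 0.787), so a fall of 1.5-fold would still lie inside the interval at this depth.

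St6galnac4 (ENSMUSG00000079442) and St6galnac6 (ENSMUSG00000026811) lie next to each other on the plus strand of chromosome 2, where the first ends at 32599698 and the second starts 11 bases further on, at 32599709. St6galnac4, which adds the inner sialic acid to sialylated core 1 chains, starts at 32587095 and stood at 39.6, 38.8 and 35.7 CPM in the control and 37.2, 36.6 and 35.3 CPM in the IL-33 libraries (log2 fold change -0.06, 95% interval -0.19 to 0.06, edgeR adjusted p = 0.516). St6galnac6, which acts mostly on gangliosides, ends at 32620806 and stood at 7.21, 8.66 and 7.03 CPM in the control and 7.11, 7.39 and 7.38 CPM in the IL-33 libraries (log2 fold change -0.06, 95% interval -0.34 to 0.21, edgeR adjusted p = 0.782). Both genes had overlapping groups. The fold change of St6galnac6 had no stable sign, since it was 0.035 with control library 2 left out.

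Leaving out any 1 library did not remove a call among these genes. The log2 fold change of St6gal1 then ranged from -1.29 to -0.93, that of St6galnac3 from -1.28 to -0.89, that of St3gal1 from -0.28 to -0.21 and that of St3gal6 from 0.39 to 0.47.

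**Figure D3:**
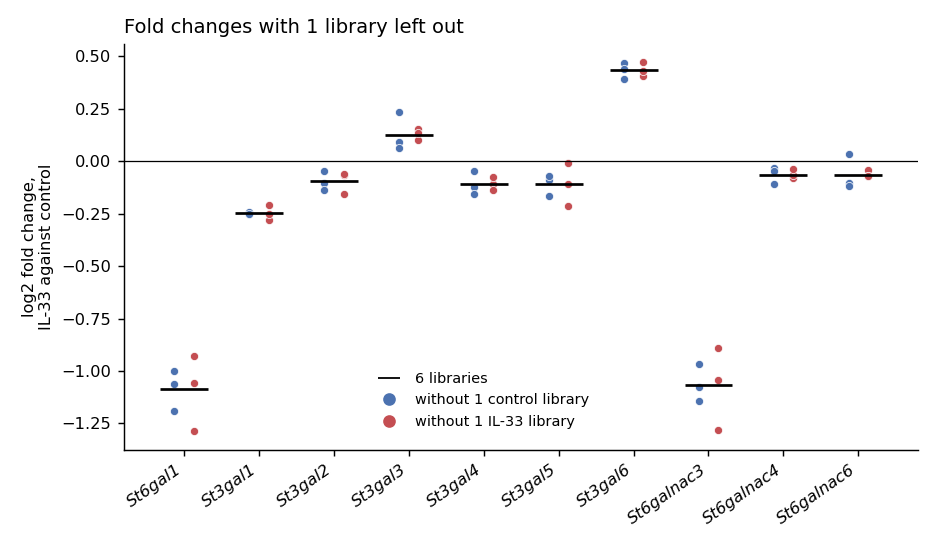
Log2 fold change of each of the 10 sialyltransferase genes in the fit of all 6 libraries (black line) and in fits with 1 control library (blue points) or 1 IL-33 library (red points) left out. The points of St6gal1 stay between -1.29 and -0.93 and those of St3gal6 between 0.39 and 0.47, while those of St6galnac6 lie on both sides of 0.

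The level of different genes was compared as CPM per kilobase of annotated exon. In the control group St3gal4 was highest at 17.4 ± 1.35, followed by St3gal1 (6.21), St6galnac4 (5.87), St3gal3 (5.12), St3gal6 (3.35), St3gal2 (2.87), St6galnac6 (1.59), St6gal1 (1.10), St3gal5 (0.877) and St6galnac3 (0.377). In that order, the ranges over the 3 libraries overlapped between St6galnac4 and St3gal3 and between no other neighbours. With IL-33 the order ran St3gal4 (16.2), St6galnac4 (5.61), St3gal3 (5.59), St3gal1 (5.23), St3gal6 (4.53), St3gal2 (2.69), St6galnac6 (1.52), St3gal5 (0.812), St6gal1 (0.517) and St6galnac3 (0.180). St6galnac4, St3gal3 and St3gal1 then followed each other with overlapping ranges, and St6gal1 stood below St3gal5. With the length of the longest transcript in place of all exons, 8 of the 10 control ranks were the same and St3gal1 and St6galnac4 changed places.

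Grouped by linkage, the summed level per length was mostly that of the St3gal genes. They made up 80.1 ± 0.651% of the sum of the 10 genes without and 81.7 ± 0.554% with IL-33, and the 3 St6galnac genes 17.5 ± 0.819% and 17.1 ± 0.289%. St6gal1, the only alpha-2,6 galactose enzyme among them, made up 2.39, 2.11 and 2.85% in the control libraries and 1.53, 1.16 and 0.935% in the IL-33 libraries. Its share was lower in every IL-33 library than in any control. The share of St3gal6 went from 7.49 ± 0.182% to 10.6 ± 0.522%. The sum itself was 44.8 ± 2.27 CPM per kilobase in the control and 42.8 ± 0.208 in the IL-33 group. Each SD covers the spread between libraries and not the choice of gene length, and the class shares were worked out with all exons only. These shares describe RNA and were not tested, and a level of RNA says nothing of how much sialic acid a cell carries.

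**Figure D4:**
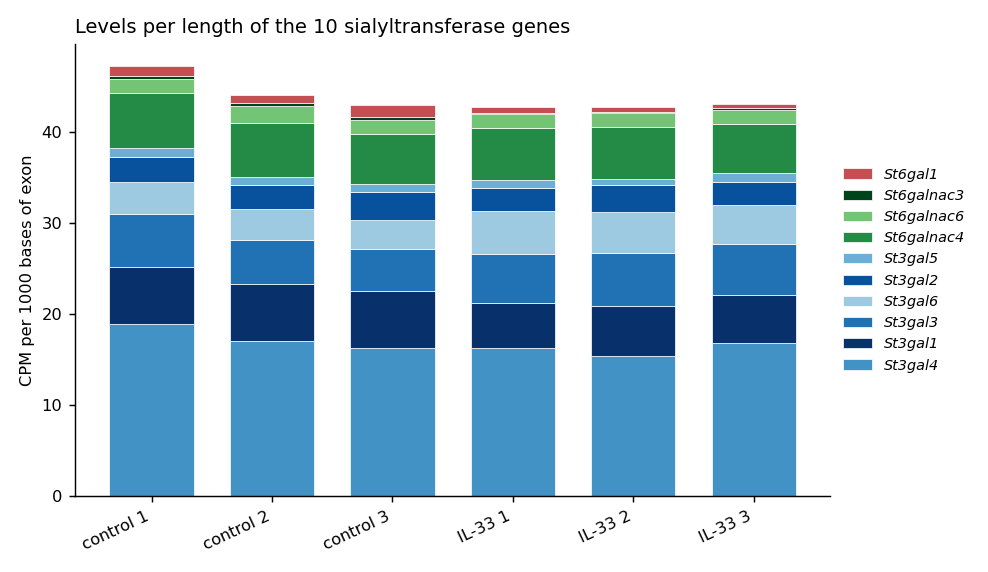
Stacked levels of the 10 sialyltransferase genes in CPM per kilobase of exon, 1 bar per library, with St3gal genes in blues, St6galnac genes in greens and St6gal1 in red. The St6gal1 segment at the top is thinner in the 3 IL-33 libraries (0.935 to 1.53% of the bar) than in the 3 control libraries (2.11 to 2.85%), and the total height is 44.8 and 42.8 on average.

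Of the other 10 genes of the family, 4 were tested. St8sia4, which builds polysialic acid, fell from 45.04, 40.8 and 42.0 CPM in the control to 36.5, 37.8 and 38.3 CPM in the IL-33 libraries (log2 fold change -0.18, SE 0.0623, edgeR adjusted p = 0.0199). That call was lost without control library 1 (edgeR adjusted p = 0.133), without IL-33 library 1 (0.093) and in DESeq2 (0.0602). St8sia1, the GD3 synthase, stood at 2.03, 2.46 and 1.41 CPM without and 1.07, 0.906 and 1.44 CPM with IL-33, and its groups overlapped. Its log2 fold change of -0.78 (SE 0.304, edgeR adjusted p = 0.045) passed both limits, but the adjusted p was 0.135 in DESeq2 and 0.0705 in limma-voom, and 0.243 without control library 2. It was also lost without control library 1 (0.0983), IL-33 library 1 (0.113) or IL-33 library 2 (0.163).

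St6galnac2, which acts on O-linked chains, held 458 counts in all and was at 2.90 to 4.005 CPM without and 3.06 to 4.34 CPM with IL-33 (log2 fold change 0.20, edgeR adjusted p = 0.491). A second Ensembl record of the same name held a further 45 counts, so its level is uncertain. St6galnac5, the ganglioside enzyme nearest in function to St6galnac6, held 50 counts (log2 fold change 0.31, edgeR adjusted p = 0.733). Below the filter were St6galnac1 with 26 counts over the 6 libraries, St8sia6 with 29, St8sia3 with 4 and St8sia5 with 1. St6gal2 and St8sia2 were not among the genes listed.

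Among the 9 tested genes that make, activate and carry sialic acid, 2 rose, 2 fell and 5 did not pass the test, and none reached 1.5-fold (median log2 fold change 0.05). Over all genes tested, 13.6% rose and 13.9% fell, and these shares stand beside the counts of all lists that follow. Cmas, which activates sialic acid to CMP-sialic acid, the donor that every sialyltransferase uses, rose from 81.6 ± 2.29 to 96.1 ± 3.48 CPM (log2 fold change 0.24, edgeR adjusted p = 2.85e-06). Gne, the enzyme of the first steps of synthesis, rose from 53.1 ± 1.18 to 61.9 ± 2.96 CPM (0.22, edgeR adjusted p = 0.000445). Renbp, which converts N-acetylmannosamine back to N-acetylglucosamine, fell from 20.5 ± 1.06 to 15.4 ± 1.46 CPM (-0.41, edgeR adjusted p = 0.000198). The remaining one that fell was Uap1, which makes UDP-N-acetylglucosamine (-0.21, edgeR adjusted p = 0.0138).

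Of 5 tested sialidases and modifying enzymes, 1 fell. This was Neu3, the sialidase of gangliosides at the plasma membrane (23.2 ± 2.51 to 19.2 ± 2.08 CPM, log2 fold change -0.27, edgeR adjusted p = 0.0129), whose groups overlapped and whose call was lost in DESeq2 (adjusted p = 0.0668) and without control library 1 (0.0729), control library 2 (0.106) or IL-33 library 2 (0.149). Of the 5 proteases known for cleaving Golgi glycosyltransferases or related to such proteases, Bace2 fell from 8.87 ± 0.797 to 6.12 ± 1.56 CPM (log2 fold change -0.53, edgeR adjusted p = 0.00227), and the other 4, among them Bace1, which is known to release ST6GAL1 from the Golgi, did not pass the test.

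The genes that build the chains under these caps changed by less than 1.5-fold where they passed the test. Of 15 tested genes of N-linked chains, 3 rose and 2 fell, with Mgat5, the branching enzyme, up from 251 ± 3.31 to 299 ± 5.14 CPM (log2 fold change 0.25, edgeR adjusted p = 5.55e-11) and Mgat1, which starts complex chains, down from 238.3 ± 6.08 to 210 ± 2.41 CPM (-0.18, edgeR adjusted p = 3.19e-06). The mannosidase gene Man2a2 also fell (-0.17, edgeR adjusted p = 0.000592). Of 15 tested genes of O-linked chains, 2 rose and 2 fell. Gcnt1, which opens the core 2 branch and competes with St3gal1 for the same core 1 chain, fell from 53.7 ± 2.31 to 41.9 ± 2.15 CPM (-0.36, edgeR adjusted p = 2.42e-07). Of the initiating enzymes, Galnt10 fell (-0.28, edgeR adjusted p = 0.000856) and Galnt6 rose (0.13, edgeR adjusted p = 0.00162).

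Of 3 tested genes of selectin ligand synthesis, Chst2, a sulfotransferase, fell from 7.47 ± 1.75 to 3.88 ± 1.06 CPM (log2 fold change -0.94, edgeR adjusted p = 2.04e-05) and was the only gene past both limits in these lists apart from the sialyltransferases. Of 10 tested ganglioside genes, 1 rose and 2 fell. B4galnt1, which takes the GM3 made by St3gal5 onward to GM2, fell from 241 ± 4.62 to 189 ± 7.38 CPM (-0.35, edgeR adjusted p = 2.11e-15), Hexa, a subunit of the enzyme that breaks GM2 down, fell (-0.26, edgeR adjusted p = 0.000289), and Ugcg, which starts the glycolipids, rose (0.15, edgeR adjusted p = 2.55e-06).

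Among the 11 tested glycoproteins of the T cell surface that are known to carry sialic acid, 4 rose and 4 fell, where 13.6% of all genes tested rose and 13.9% fell. Il2ra rose from 951 ± 5.31 to 1194 ± 4.16 CPM (log2 fold change 0.33, edgeR adjusted p = 5.95e-23), Cd7 rose (0.43, edgeR adjusted p = 5.08e-05) and Ptprc, which encodes CD45, fell (-0.11, edgeR adjusted p = 1.58e-06). Of the galectins, which bind galactose that no alpha-2,6 sialic acid covers, 3 of 6 tested genes rose, beside 13.6% of all genes, and none fell, with a median log2 fold change of 0.24 beside -0.00063 over all genes. Lgals3 rose from 1006 ± 17.8 to 1190 ± 36.8 CPM (0.24, edgeR adjusted p = 3.27e-15), Lgals1 from 712 ± 28.7 to 837 ± 34.4 CPM (0.23, edgeR adjusted p = 4.19e-10) and Lgals9 from 65.5 ± 1.93 to 80.3 ± 1.80 CPM (0.29, edgeR adjusted p = 5.97e-08). Of the Siglecs and the related Pilr receptors, which bind sialic acid, 9 of 11 were below the filter and neither of the 2 tested passed the test. The 1 selectin tested did not pass it either.

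**Figure D5:**
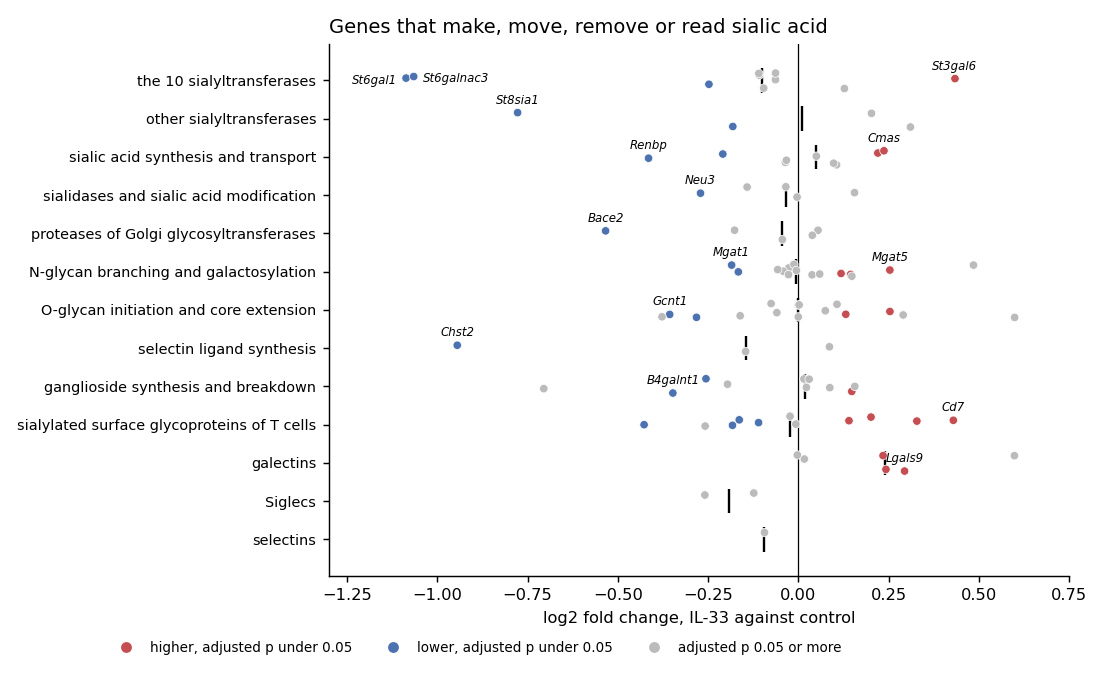
Log2 fold change of every tested gene of 13 lists around sialic acid, 1 point per gene (red higher and blue lower at an adjusted p under 0.05, grey otherwise, with random vertical scatter), and the median of each list as a black line. St6gal1 (-1.09), St6galnac3 (-1.07) and Chst2 (-0.94) lie farthest to the left, and the 3 called galectins lie between 0.23 and 0.29.

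The 5 genes whose profile was most like that of St6gal1 were found by the root mean square difference of centred log2(CPM + 0.5) values over the 6 libraries, among 12959 genes with a mean of at least 1 CPM. They were Trpm6 (0.124), Gm7931 (0.157), Aire (0.160), Aff3 (0.162) and Adgrl1 (0.167), beside a median difference of 0.532 over all genes compared. The first 3 rest on low counts. Trpm6 held 18 to 50 per library, Aire 12 to 42 and Gm7931, a gene model of 271 bases, 43 to 121. Aff3 fell from 6.75 ± 0.312 to 2.80 CPM and Adgrl1 from 11.1 ± 1.397 to 5.42 CPM. St6galnac3 stood at rank 513 with 0.341. The measure takes in the difference between groups as well as that between libraries.

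Genes that mark other cells moved with IL-33 in part. Of the 12 dendritic and myeloid markers 5 were tested, of which H2-Ab1 rose and Itgax fell (54.6 to 26.0 CPM). The median log2 fold change of these 5 was 0.11. The list summed to 94.1 to 96.8 CPM without and 71.8 to 76.3 CPM with IL-33, and Itgax alone fell by more than this sum did. The 8 mast cell and basophil markers summed to 38.6 to 41.8 and 27.0 to 31.6 CPM with 2 of 3 tested genes lower, 1 of them past both limits. Of the 8, 4 were below the filter on low counts and 1 was not listed. Ms4a2 and Tpsb2, chosen after their values were seen, were listed at 0 in every IL-33 library. At most 1 of these 2 passed the filter, and the sum of the 8 markers did not go to 0. Of the 5 NK cell markers 1 of 2 tested genes fell, with sums of 405 to 408 and 373 to 393 CPM. Of the 8 B cell markers 2 were tested and neither passed, with sums of 5.46 to 5.89 and 5.77 to 6.57 CPM. Their part in the levels of the sialyltransferase genes was not tested. In bulk RNA, fewer cells that express a gene and less RNA per cell cannot be told apart.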

How the data were processed

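Gene counts of 6 bulk RNA-seq libraries (3 control, 3 IL-33) were used. As deposited, the counts were whole and unnormalised, and the table also held a mean signal per gene (the authors' base mean), which was used only in a check that the mean of the scaled counts gave it back, within 2.12e-07%. The submitters' processing notes name Bowtie 0.12.2 and mm8 without their roles. The labels name an Illumina TruSeq kit and the study's methods a NEBNext Ultra kit, and the counting program and use of strand were not given in the sources used here. Gene models were those of GENCODE M21 (GRCm38), which held 26086 of the 26128 identifiers.

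Genes were kept by filterByExpr (minimum count 10, minimum total 15), scaled by TMM and tested with edgeR 4.0.16 (R 4.3.3), quasi-likelihood, two-sided, with Benjamini-Hochberg adjustment over 14671 genes. DESeq2 1.42.0, limma-voom (limma 3.58.1), other scalings and filters, a replicate block, a test against the 1.5-fold limit and fits with 1 library left out were alternatives. The code was tested on simulated data. Within groups, libraries differed by more than sampling noise (chi-square per gene 2.64 to 3.67). Intervals cover the spread between libraries, and the level of 3 counts covers counting error only. The members and gene lists were chosen with earlier results of these data known. The text names all members, every other sialyltransferase, for each pathway list up to 3 called genes with the smallest adjusted p, a few cell markers and the 5 profiles nearest to St6gal1. Genes named in addition were 4930581F22Rik and Dcbld2, which overlap a member, and some of the members' neighbours on the chromosome. Chosen after their values were seen were Uap1, Bace1, Itgax, H2-Ab1, Ms4a2, Tpsb2 and Ddx19a.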

Additional observations from a re-analysis of the deposited data

How the results depend on the processing

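The test against the 1.5-fold limit itself was the 1 alternative that ended calls among the members. It left 113 genes in all (75 higher and 38 lower, 66.4% higher) in place of 4036 at the adjusted p and 714 past both limits (50.8% higher), and 0 of the 10 members by either rule. The log2 fold change of St6gal1 is the same by its construction (-1.09, adjusted p = 0.118). In the other 13 alternatives, 4 members were called and 2 passed both limits, and each of the 4 kept its direction. Without 1 library, genes past both limits numbered 621 to 719, genes at the adjusted p 3366 to 3664, members called 4 to 4, members past both limits 2 to 2, and the St6gal1 log2 fold change ran from -1.29 to -0.93. DESeq2 gave 501 genes past both limits. Scaling by library totals alone moved the median log2 fold change to -0.02 and the higher share of calls at the adjusted p from 49.5% to 43.0%. Same-numbered control and IL-33 libraries did not deviate together (correlations of 0.0116, 0.00317 and 0.0107). A weak shared effect could give such values too, so whether they came from the same mouse or culture stays unknown. With the replicate block, 666 genes passed both limits, 4 members were called and 2 of them passed both limits, with St6gal1 at -1.09, and the call of St8sia1 was lost (adjusted p = 0.074). The control share of St6gal1 was 1.97% by longest transcript, against 2.45% by all exons, since the lengths that divide the counts differ. It ran from 2.25 to 2.62% in the control and 1.05 to 1.34% in the IL-33 group without 1 library. Low counts limit St6gal1 (44 to 132 per library), St6galnac3 (26 to 84) and St3gal5 (38 to 54).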

Other observations

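Some of the nearest tested genes around 5 of the members, the 4 called ones and St6galnac6, are given here with their values. Around the other members, Ddx19a, 2516 bases from St3gal2, was called (log2 fold change 0.13, edgeR adjusted p = 0.0411). The rest of the nearest tested genes there did not pass. Beside St6gal1 lie Rfc4, 97003 bases away, with a log2 fold change of -0.17 (edgeR adjusted p = 0.312), and Rtp4, 159941 bases away, with -0.16 (edgeR adjusted p = 0.217). The tested neighbours of St6galnac3 are St6galnac5 (216020 bases away, 0.31, edgeR adjusted p = 0.733) and Rabggtb (182113 bases away, 0.02, edgeR adjusted p = 0.897). None of these 4 passed the test. Ndrg1, 133235 bases from St3gal1, rose (log2 fold change 0.61, edgeR adjusted p = 2.05e-12) where St3gal1 fell. Cpox, 146049 bases from St3gal6, rose as St3gal6 did (0.24, edgeR adjusted p = 0.00482). The tested neighbours on the other side did not pass. These were Zfat, 906934 bases from St3gal1 (-0.03, edgeR adjusted p = 0.913), and Cmss1, 861261 bases from St3gal6 (-0.03, edgeR adjusted p = 0.913). Over all genes tested, 27.5% were called. Ak1, the gene of an adenylate kinase that starts 952 bases after St6galnac6, rose (0.83, edgeR adjusted p = 0.0487), while St6galnac6 itself stood at -0.06. Which of these pairs differ in their response was not tested.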
